A study of Caenorhabditis elegans with 6 samples.

Results

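BAG neurons sorted from pmk-3 mutant cultures of the nematode Caenorhabditis elegans were compared with wild-type non-BAG cells, to see how far the mutant neuron kept a BAG and a neuronal transcriptome. A gene belonged to the comparison when its normalised read count reached 10 in at least 2 of the 4 libraries compared, 2 of mutant BAG neurons and 2 of non-BAG cells. This held for 13258 of the 47063 genes in the deposited table, of which 11770 are protein-coding. Mutant BAG neurons were GFP-positive cells of strain FQ705, which carries the mutation pmk-3(wz31) beside the reporter transgene wzIs113[Pgcy-9::GFP]. Wild-type BAG neurons were GFP-positive cells of strain FQ424, which carries the reporter wzIs113[Pgcy-9::GFP] alone, and are used here as a second, direct point of comparison. Wild-type non-BAG cells were the non-fluorescent cells of FQ424, so the reporter is present in all 3 groups. All cells came from embryos dissociated and cultured overnight at 25 °C, and were sorted about 24 h after dissociation with dead cells excluded by propidium iodide. The wild-type non-BAG sort mixes many cell types, and there is no library of pmk-3 mutant non-BAG cells, so genotype and cell type differ together between mutant BAG neurons and non-BAG cells and cannot be told apart in that comparison. The gate rests on the promoter of gcy-9, and per the labels more than 90% of sorted cells were GFP-positive under the microscope.

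The BAG neurons are a pair of ciliated sensory neurons in the head. They detect carbon dioxide with the receptor guanylyl cyclase GCY-9 and falling oxygen with the soluble guanylyl cyclases GCY-31 and GCY-33, and the cyclic GMP made by these enzymes opens the cation channel formed by TAX-2 and TAX-4. The transcription factors ETS-5 and EGL-13 act in setting BAG fate, and the cells release glutamate and FMRFamide-like peptides. PMK-3 is a p38 MAP kinase that acts downstream of the kinases DLK-1 and MKK-4, a cascade known for its roles in synapse formation and axon regeneration. The title of the series places an autocrine insulin signal in the development of this sensory neuron.

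Read totals were 6402074 and 6456296 for mutant BAG libraries, 7592477 and 8596169 for wild-type BAG libraries, against 6181113 and 8514846 for non-BAG libraries. The series text calls the libraries of a group biological replicates and does not say whether they came from separate culture days. They differed by more than sampling noise, the mutant pair least: chi-square divided by its degrees of freedom was 9.45 between the mutant libraries, 27.3 between the wild-type BAG libraries and 39.4 between the non-BAG libraries. Levels below are the deposited normalised read counts, given for replicate 1 and then replicate 2. The transcript of pmk-3 stood at 259.8 and 284 in mutant BAG neurons, 671 and 585 in wild-type BAG neurons, against 404 and 553 in non-BAG cells. The mutant values were lower than every wild-type value, but neither difference passed the threshold. It was -0.80 ± 0.28 on the log2 scale over non-BAG cells (limma adjusted p = 0.0626) and -1.20 ± 0.28 over wild-type BAG neurons (limma adjusted p = 0.0784). Without non-BAG replicate 1 the difference from non-BAG cells passed (limma adjusted p = 0.036). It also passed against wild-type BAG neurons without non-BAG replicate 1 or 2 (limma adjusted p = 0.0326 and 0.0306). The lesion of wz31 is not stated, so a transcript level does not check the genotype.

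Mutant BAG neurons stood far from non-BAG cells. Changes are differences of log2(value + 1) between group means, with their standard error, from 1 limma fit to all 6 libraries, 2 a group, and a change passed at a Benjamini-Hochberg adjusted p under 0.05 (two-sided, over 14211 genes). Of the members, 2288 were higher in mutant BAG neurons than in non-BAG cells, which is 17.3%, and 1318 were lower, which is 9.94%. The rule itself fixed the direction of some members. There were 1042 at 10 or more in both mutant libraries and neither non-BAG library, and 598 the other way. The shares of 17.3% and 9.94% are the background of each list count against non-BAG cells below. These shares and the list counts include such members. Changes were of wide size: 1561 of the genes that rose did so by at least 2 log2 units and 390 by at least 4, and 568 of the genes that fell did so by at least 2 and 33 by at least 4. The median change over all members was -0.07. Against wild-type BAG neurons the same members gave 69 higher, 0.52%, and 46 lower, 0.347%. Set beside these, wild-type BAG neurons against the same non-BAG libraries gave 1420 higher, 10.7%, and 570 lower, 4.3%, and these 2 comparisons share the non-BAG libraries.

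The counts depend on the number of libraries. A fit without mutant replicate 1 gave 1199 higher and 493 lower than non-BAG cells, and without mutant replicate 2 it gave 1068 and 302, with the single mutant library left assumed to vary like the other groups. Against wild-type BAG neurons, no member passed in either direction without mutant replicate 1 or without wild-type BAG replicate 2, so each call over wild-type BAG neurons given below is lost in those fits. Without mutant replicate 2 the counts were 0 and 2, and without wild-type BAG replicate 1 they were 3 and 6. Without non-BAG replicate 1 they were 257 higher and 235 lower, and without non-BAG replicate 2 they were 298 and 248. At an unadjusted p under 0.05, 2158 members differed between mutant and wild-type BAG neurons and 5382 between mutant BAG neurons and non-BAG cells.

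Distances between libraries describe the same groups without a test. The median absolute difference of log2(value + 1) over the members was 0.35 between the mutant libraries. It lay between 0.49 and 0.60 for a mutant and a wild-type BAG library, and between 0.86 and 0.92 for a mutant BAG and a non-BAG library. A wild-type BAG and a non-BAG library were 0.67 to 0.80 apart, the wild-type BAG pair 0.46 and the non-BAG pair 0.54. Over these members each mutant library was closer to each wild-type BAG library than to either non-BAG library. Members were chosen on the mutant BAG and non-BAG libraries, which enlarges the distance between these groups. A further 953 fitted genes, which passed through the wild-type BAG libraries, are left out. The choice of members thus favours this order, which is a description only. For the same reason the distance is not set against that of wild-type BAG neurons from non-BAG cells.

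**Figure D1:**
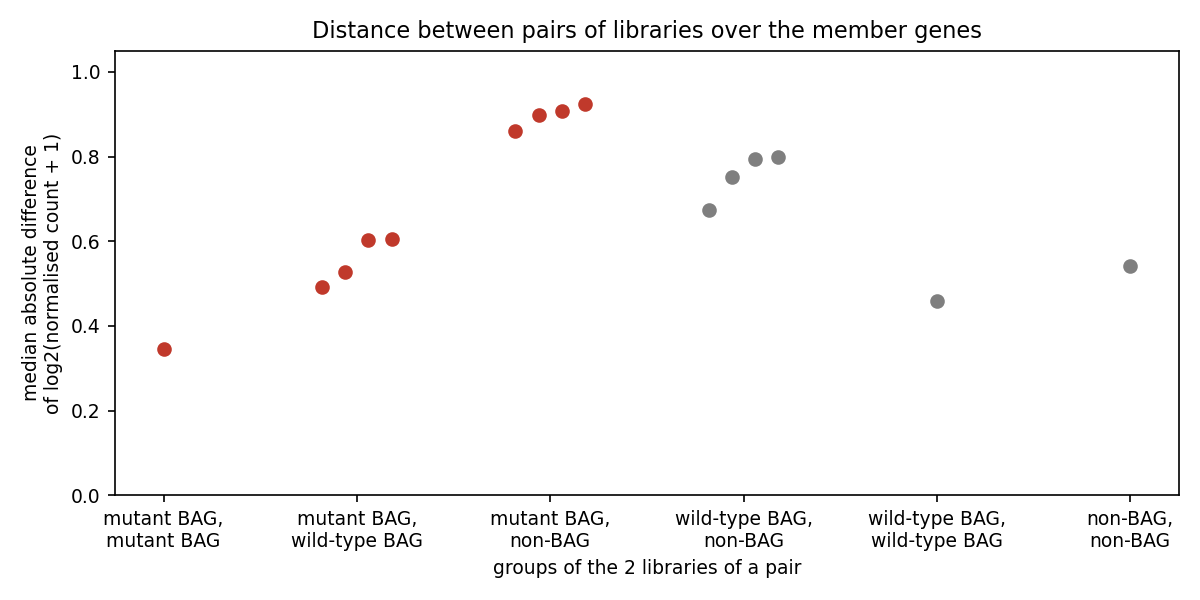
Median absolute difference of log2(normalised count + 1) over the 13258 member genes for every pair of the 6 libraries, by the groups of the pair (red, pairs with a mutant library). Pairs of a mutant and a wild-type BAG library sit between 0.49 and 0.60, all under the pairs of a mutant BAG and a non-BAG library at 0.86 to 0.92. Members were chosen on the mutant BAG and non-BAG libraries, which favours this order.

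The BAG identity genes were kept. All 14 genes of the list, which holds the gas-sensing cyclases, the BAG transcription factors, the transduction channel and peptide genes known from this cell, were higher in mutant BAG neurons than in non-BAG cells, and all 14 passed without any one of the 6 libraries. Their median change was 4.62, beside -0.07 over all members. The list includes gcy-9, whose promoter set the gate, and 2 genes, flp-17 and ets-5, reached the minimum through the mutant libraries alone and so had to be higher. In bulk libraries, fewer cells of a type and less RNA per cell cannot be told apart. The level of gcy-9 checks the sort and is no finding: it stood at 35897 and 45158 in mutant BAG neurons, 32105 and 38516 in wild-type BAG neurons, against 259 and 280.2 in non-BAG cells.

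Among the oxygen-sensing cyclases, gcy-33 stood at 3271 and 3515 in mutant BAG neurons, 4436 and 3595 in wild-type BAG neurons, against 18.4 and 34.1 in non-BAG cells. For gcy-31 the values were 6476 and 6772 in mutant BAG neurons, 6809 and 5656 in wild-type BAG neurons, against 123 and 83.7 in non-BAG cells. Every BAG library lay above every non-BAG library for both genes, and the mutant and wild-type BAG values overlapped for gcy-31 and the mutant values lay just under the wild-type BAG values for gcy-33. Over non-BAG cells gcy-33 rose by 7.02 ± 0.32 (limma adjusted p = 2.58e-06) and gcy-31 by 6.01 ± 0.28 (limma adjusted p = 2.58e-06). Over wild-type BAG neurons the differences were -0.24 ± 0.32 for gcy-33 and 0.09 ± 0.28 for gcy-31, with 95% intervals, not adjusted over genes, of -0.96 to 0.48 and -0.53 to 0.72.

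The ETS-domain factor gene ets-5 was at 702 and 647 in mutant BAG neurons, 620.3 and 473 in wild-type BAG neurons, against 7.58 and 8.68 in non-BAG cells. The SoxD gene egl-13 was at 15698 and 17874 in mutant BAG neurons, 17945 and 12281 in wild-type BAG neurons, against 1038 and 539 in non-BAG cells. The homeobox gene ceh-37 was at 1948 and 2521 in mutant BAG neurons, 2147 and 1499.6 in wild-type BAG neurons, against 573 and 301 in non-BAG cells. All 3 were higher in each mutant library than in either non-BAG library, by 6.21 ± 0.31, 4.48 ± 0.36 and 2.41 ± 0.35 for ets-5, egl-13 and ceh-37. Their differences from wild-type BAG neurons did not pass: 0.32, 0.17 and 0.30, with 95% intervals of -0.38 to 1.01 for ets-5, -0.64 to 0.98 for egl-13 and -0.49 to 1.10 for ceh-37. The level of ets-5 is uncertain, since it shares exonic sequence with cal-5.

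The channel genes moved with them. For tax-2 the values were 757 and 869 in mutant BAG neurons, 581 and 348 in wild-type BAG neurons, against 38.98 and 9.92 in non-BAG cells, a rise of 5.28 ± 0.54 over non-BAG cells. For tax-4 they were 1012 and 1018 in mutant BAG neurons, 961 and 562 in wild-type BAG neurons, against 46.6 and 39.7 in non-BAG cells, a rise of 4.53 ± 0.32. Neither gene's groups overlapped between mutant BAG neurons and non-BAG cells. The globin gene glb-5, which tunes oxygen responses, rose by 4.43 ± 0.37 over non-BAG cells, and eat-4, the vesicular glutamate transporter gene, by 4.71 ± 0.31. Whether reads were counted by strand is not stated. The levels of eat-4, which overlaps ZK512.2 on the opposite strand, and of other such genes below are therefore uncertain.

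In 2 peptide genes of the list the difference between mutant and wild-type BAG neurons passed the threshold. The FMRFamide-like peptide gene flp-10 was at 1129.7 and 1862 in mutant BAG neurons, 283 and 366 in wild-type BAG neurons, against 92.0 and 119.7 in non-BAG cells. For flp-19 the values were 438 and 497 in mutant BAG neurons, 111 and 117 in wild-type BAG neurons, against 47.6 and 35.96 in non-BAG cells. The 3 groups did not overlap for either gene. They were higher in mutant than in wild-type BAG neurons by 2.17 ± 0.33 for flp-10 (limma adjusted p = 0.0275) and 2.03 ± 0.32 for flp-19 (limma adjusted p = 0.0301). Both calls were lost without any one of the 4 BAG libraries, with limma adjusted p between 0.091 and 0.511. The level of flp-19 is uncertain because abl-1 overlaps it on the opposite strand.

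For the other peptide genes of the list, flp-17 and flp-13, and for eat-4, both mutant values lay above both wild-type BAG values, but the differences did not pass. The gene flp-17 was at 882 and 1466 in mutant BAG neurons, 167 and 292 in wild-type BAG neurons, against 1.08 and 3.10 in non-BAG cells. It differed by 2.36 ± 0.47 (limma adjusted p = 0.0567; 95% interval 1.31 to 3.41). It passed under 10 of 18 other settings. The gene eat-4 was at 946 and 951 in mutant BAG neurons, 309.7 and 487 in wild-type BAG neurons, against 35.7 and 34.7 in non-BAG cells, and differed from wild-type BAG neurons by 1.29 ± 0.31 (limma adjusted p = 0.0868), passing under 5 of 18 other settings. For flp-13 the difference was 1.29 ± 0.38. Over the whole list the median difference between mutant and wild-type BAG neurons was 0.49, and no member was lower in the mutant past the threshold.

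**Figure D2:**
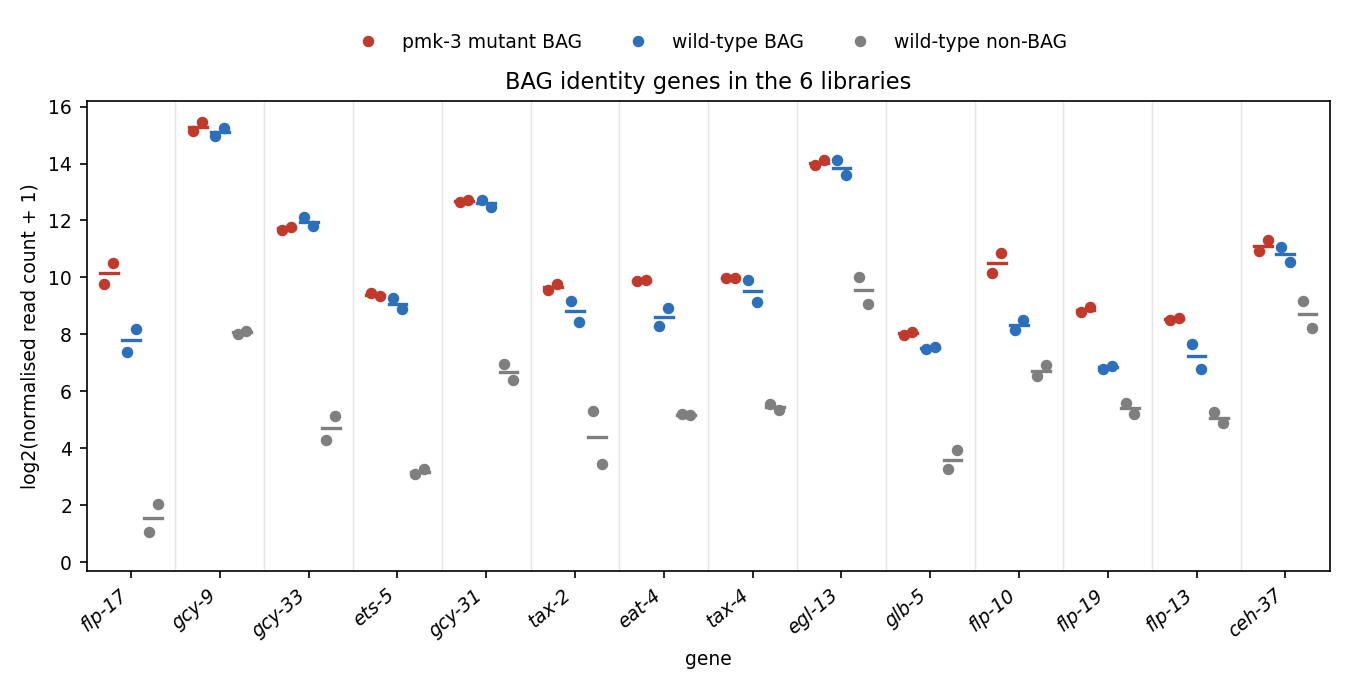
Each BAG identity gene in the 6 libraries, as log2(normalised read count + 1), with 1 point a library and a bar at the group mean, ordered by the change of mutant BAG neurons over non-BAG cells. In all 14 genes the mutant points lie above the non-BAG points, and in flp-10 and flp-19 they also lie past the threshold above the wild-type BAG points.

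Insulin-like peptides are the class of signal in the title of the series. The gene ins-1 stood at 2122 and 2571 in mutant BAG neurons, 1972 and 579.6 in wild-type BAG neurons, against 25.99 and 25.4 in non-BAG cells. Both mutant libraries lay far above the non-BAG libraries, by 6.45 ± 0.48 (limma adjusted p = 2.11e-05), while 1 wild-type BAG library lay near the mutant level and the other well under it. The difference from wild-type BAG neurons, 1.13 ± 0.48, did not pass (limma adjusted p = 0.296), with a 95% interval of 0.04 to 2.21. Of 40 insulin-like genes looked for, 19 were members and 9 of these were higher in mutant BAG neurons than in non-BAG cells, none lower. Over all genes compared, 17.3% were higher and 9.94% lower. Of the 19 insulin-like members, 6 reached the minimum in the mutant libraries alone and so had to differ.

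Insulin-like genes of low count moved as well. For daf-28, an insulin-like gene known from dauer control, the values were 102 and 133 in mutant BAG neurons, 28.3 and 13.6 in wild-type BAG neurons, against 5.41 and 3.72 in non-BAG cells. The gene ins-30 was at 81.9 and 148 in mutant BAG neurons, 11.9 and 6.46 in wild-type BAG neurons, against 12.99 and 14.3 in non-BAG cells, and it was the 1 insulin-like gene called higher than in wild-type BAG neurons, by 3.50 ± 0.55 (limma adjusted p = 0.0301). Without mutant replicate 1 the count of higher insulin genes was 5, without mutant replicate 2 it was 2, and without non-BAG replicate 1 it was 6.

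The largest rises outside the identity list were those of peptide, receptor and little-studied genes. C04E6.13 stood at 1515 and 2171 in mutant BAG neurons, 657 and 886 in wild-type BAG neurons, against 2.17 and 5.58 in non-BAG cells. The neuropeptide gene nlp-1 was at 1756 and 3776 in mutant BAG neurons, 659.6 and 971 in wild-type BAG neurons, against 4.33 and 11.8 in non-BAG cells. The globin gene glb-34 was at 1407 and 1455 in mutant BAG neurons, 1403 and 1338 in wild-type BAG neurons, against 6.50 and 4.96 in non-BAG cells. For all 3 the mutant and wild-type BAG libraries lay far above the non-BAG libraries, and glb-34 was about level in the 4 BAG libraries.

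Over non-BAG cells these genes rose by 8.63 ± 0.40, 8.29 ± 0.49 and 7.74 ± 0.28 for C04E6.13, nlp-1 and glb-34 (limma adjusted p = 2.58e-06, 6.48e-06 and 2.58e-06). The neuropeptide gene nlp-55 rose by 7.54 ± 0.66, npr-7, of the neuropeptide receptor family, by 7.32 ± 0.40, and mgl-3, a metabotropic glutamate receptor gene, by 7.28 ± 0.30. Y48G8AR.2, nimk-1 and F49C5.3 rose by 7.78 ± 0.35, 7.49 ± 0.55 and 7.18 ± 0.42. A further gene of this size of rise, B0294.1 (7.55 ± 0.99), also differed from wild-type BAG neurons, by 6.07 ± 0.99, and is described with the genes that set the mutant apart. None of the 9 genes above differed from wild-type BAG neurons past the threshold, with differences from 0.06 for glb-34 to 2.02 for F49C5.3. Several non-BAG values rest on a few reads, so these fitted changes depend on the added 1 and understate the difference. C04E6.13, glb-34, nimk-1, F49C5.3 and B0294.1 reached the minimum through the mutant libraries alone and so had to be higher.

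Genes used by neurons in general were also kept. Of 25 pan-neuronal genes, 22 were higher in mutant BAG neurons than in non-BAG cells and none lower, with a median change of 3.03 beside -0.07 over all members. The neurons of the non-BAG mixture contribute to the level they are set against. Synaptotagmin gene snt-1, the calcium sensor of synaptic vesicles, was at 4019 and 3519 in mutant BAG neurons, 2664 and 2407 in wild-type BAG neurons, against 129.9 and 105 in non-BAG cells. Its mutant values lay above both other groups, by 4.99 ± 0.25 over non-BAG cells, and the difference from wild-type BAG neurons did not pass, 0.57 ± 0.25 (95% interval -0.0023 to 1.14). The guanine nucleotide exchange factor gene rgef-1, widely used as a neuronal marker, rose by 4.02 ± 0.32, though its overlap with ehbp-1 leaves the level uncertain. The synaptobrevin gene snb-1, the collapsin-response gene unc-33 and the tubulin gene tbb-1 did not pass, at 0.59, -0.00099 and -0.39. The 1 pan-neuronal gene that differed from wild-type BAG neurons past the threshold was egl-21.

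Synaptic vesicle and active zone genes gave 21 higher of 33 and none lower, with a median change of 1.42. The complexin gene cpx-1, which clamps vesicle fusion, was at 792 and 579.6 in mutant BAG neurons, 267 and 318 in wild-type BAG neurons, against 59.6 and 30.4 in non-BAG cells, with no overlap between the 3 groups. It rose by 3.96 ± 0.37 over non-BAG cells, and unc-41, the stonin gene of vesicle recycling, by 3.75 ± 0.28. The sodium leak channel gene nca-2 rose by 3.65 ± 0.29. No gene of this list differed between mutant and wild-type BAG neurons past the threshold, and their median difference was 0.18.

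Dense-core vesicles carry neuropeptides, which are cut from precursors by the convertase EGL-3 and trimmed by the carboxypeptidase EGL-21. The gene egl-3 was at 21802 and 31346 in mutant BAG neurons, 7889 and 7104 in wild-type BAG neurons, against 617 and 329 in non-BAG cells. For egl-21 the values were 5949 and 7854 in mutant BAG neurons, 2337 and 2451 in wild-type BAG neurons, against 267 and 205 in non-BAG cells. In both genes the 3 groups were apart, with the mutant highest. Over non-BAG cells egl-3 rose by 5.86 ± 0.35 and egl-21 by 4.86 ± 0.27. Over wild-type BAG neurons egl-21 was higher by 1.51 ± 0.27 (limma adjusted p = 0.0425), and egl-3, by 1.80 ± 0.35, just missed the threshold (limma adjusted p = 0.0533).

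The amidating lyase gene pgal-1 was higher than in both other groups as well, by 4.80 ± 0.32 over non-BAG cells and 2.00 ± 0.32 over wild-type BAG neurons (limma adjusted p = 0.0301). Its level is uncertain because of F21F3.6 on the opposite strand. Of 22 dense-core vesicle and processing genes, 16 were higher than in non-BAG cells and 1 was lower, eipr-1 (-0.91 ± 0.27), a gene of vesicle maturation, whose call was lost without either mutant library, without either non-BAG library and without wild-type BAG replicate 1. The list's median change was 2.65, and its median difference from wild-type BAG neurons was 0.77.

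The peptide genes themselves were also higher. Of 30 FMRFamide-like genes, 26 were higher in mutant BAG neurons than in non-BAG cells and none lower, with a median change of 2.95, and 5 of the FLP members passed the minimum through the mutant libraries alone. Of 61 members among 79 other neuropeptide genes, 43 were higher and none lower, with a median of 2.54, and 16 of these members passed the minimum through the mutant libraries alone. The gene flp-6 was at 557 and 946 in mutant BAG neurons, 91.4 and 117 in wild-type BAG neurons, against 28.2 and 14.3 in non-BAG cells. For nlp-59 the values were 4654 and 6865 in mutant BAG neurons, 1172 and 824 in wild-type BAG neurons, against 136 and 120.3 in non-BAG cells. Both genes had 3 separate groups with the mutant on top. They exceeded wild-type BAG neurons by 2.80 ± 0.42 for flp-6 (limma adjusted p = 0.0275) and 2.52 ± 0.30 for nlp-59 (limma adjusted p = 0.00984).

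Against wild-type BAG neurons 4 FLP genes (flp-6, flp-10, flp-14 and flp-19) and 7 NLP genes (nlp-3, nlp-11, nlp-15, nlp-17, nlp-18, nlp-59 and nlp-80) were higher, beside 0.52% of all members. The median differences were 1.73 over the FLP list and 1.40 over the NLP list, beside 0.06 over all members. Without non-BAG replicate 1 there were 11 FLP and 17 NLP genes higher, and without non-BAG replicate 2 there were 12 and 19. Without any one BAG library no FLP gene was higher, and of the NLP genes 1 was without wild-type BAG replicate 1 and none without any of the other 3. One FLP gene went the other way. The gene flp-25 was at 155 and 106.9 in mutant BAG neurons, 958 and 2840.5 in wild-type BAG neurons, against 101 and 136 in non-BAG cells, so the mutant values overlapped the non-BAG values. Its difference from wild-type BAG neurons was -3.67 ± 0.47 (limma adjusted p = 0.0115).

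Among the largest rises over non-BAG cells were nlp-47 (6.30 ± 0.45) and nlp-13 (6.14 ± 0.35). The gene nlp-47 was at 589.6 and 875 in mutant BAG neurons, 143 and 139.3 in wild-type BAG neurons, against 12.99 and 4.96 in non-BAG cells, with 3 separate groups, and nlp-13 was at 4328 and 5942 in mutant BAG neurons, 2558 and 2087 in wild-type BAG neurons, against 50.9 and 99.2 in non-BAG cells. Their differences from wild-type BAG neurons, 2.34 ± 0.45 for nlp-47 and 1.13 ± 0.35 for nlp-13, did not pass. The gene flp-20 had 61.4 and 210.4 in mutant BAG neurons and 7.31 and 0 in wild-type BAG neurons, against 4.33 and 4.34 in non-BAG cells, and its call over non-BAG cells was lost without mutant replicate 2. The NLP count was 31 without mutant replicate 1 and 25 without mutant replicate 2. Other neurons of the non-BAG mixture also make many of these peptides, and their part in the result was not tested.

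Ciliary genes, which build and serve the sensory ending, were higher almost throughout. Of 60 genes of cilia and intraflagellar transport, 54 were higher in mutant BAG neurons than in non-BAG cells and none lower, with a median change of 2.17. Of the members 4, mks-2 among them, reached the minimum through the mutant libraries alone and so had to be higher. None differed between mutant and wild-type BAG neurons past the threshold, and the median difference was 0.22. The kinase gene dyf-18 was at 891 and 743 in mutant BAG neurons, 847 and 401 in wild-type BAG neurons, against 48.7 and 32.2 in non-BAG cells. The transition zone gene mks-2 was at 83.0 and 114 in mutant BAG neurons, 119.7 and 118 in wild-type BAG neurons, against 5.41 and 9.299 in non-BAG cells. The BAG groups lay together and far above non-BAG cells for both, with rises of 4.32 ± 0.39 for dyf-18 and 3.60 ± 0.44 for mks-2. The RFX factor gene daf-19, which drives ciliary genes, rose by 1.72 ± 0.32. The count was 40 without mutant replicate 1 and 30 without mutant replicate 2.

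Of 39 genes of cyclic GMP signalling outside the gas-sensing cyclases, 21 were higher than in non-BAG cells and none lower, with a median change of 1.55. The phosphodiesterase gene pde-1 was at 3412 and 3766 in mutant BAG neurons, 2758 and 2896 in wild-type BAG neurons, against 87.7 and 66.95 in non-BAG cells, a rise of 5.53 ± 0.26. The receptor cyclase gene gcy-12 rose by 3.83 ± 0.34 over non-BAG cells. One kinase gene, pkg-2, was above wild-type BAG neurons, at 538 and 793 in mutant BAG neurons, 224 and 202 in wild-type BAG neurons, against 283 and 266 in non-BAG cells, a difference of 1.62 ± 0.29 (limma adjusted p = 0.044). The soluble cyclase gene gcy-37, known from the URX, AQR and PQR oxygen sensors, stood at 61.4 and 96.6 in mutant BAG neurons, 826 and 677 in wild-type BAG neurons, against 77.97 and 96.1 in non-BAG cells, so the mutant values overlapped the non-BAG values. It was the 1 gene of this list below wild-type BAG neurons, with a difference of -3.26 ± 0.34 (limma adjusted p = 0.00906). The list count was 10 without mutant replicate 1 and 7 without mutant replicate 2.

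Globins bind oxygen, and 27 of 33 globin genes were higher in mutant BAG neurons than in non-BAG cells, none lower, with a median change of 2.78. Of the members 11 reached the minimum through the mutant libraries alone. The gene glb-21 was at 373 and 457 in mutant BAG neurons, 234 and 167 in wild-type BAG neurons, against 2.17 and 5.58 in non-BAG cells, and glb-19 at 487 and 475 in mutant BAG neurons, 236 and 255 in wild-type BAG neurons, against 9.75 and 5.58 in non-BAG cells. The mutant values were the highest for both, by 6.50 ± 0.44 and 5.84 ± 0.36 over non-BAG cells, and no globin gene differed from wild-type BAG neurons past the threshold by limma. Their median difference from wild-type BAG neurons was 1.06, 18 had an unadjusted p under 0.05, and 5 were higher without non-BAG replicate 1 and 5 without non-BAG replicate 2. The globin count was 16 without mutant replicate 1 and 15 without mutant replicate 2.

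G protein, glutamate and ion channel genes were also higher by list. Of 37 G protein and regulator genes 23 were higher, with a median change of 1.59, among them rgs-6, a regulator of G protein signalling (3.72 ± 0.25), and the receptor kinase gene grk-2 (3.69 ± 0.24). Of 27 glutamate genes 18 were higher, with a median of 2.24, among them the glutamate receptor gene glr-7 (4.001 ± 0.34) and the glutamate-gated chloride channel gene glc-4 (3.35 ± 0.38). No member of either list was lower. Of 40 potassium and calcium channel genes 26 were higher and 2 lower, with a median of 1.81.

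The small-conductance potassium channel gene kcnl-1 was at 1441 and 2122 in mutant BAG neurons, 458 and 540.1 in wild-type BAG neurons, against 53.1 and 34.1 in non-BAG cells. The 3 groups did not overlap, and the mutant was higher than wild-type BAG neurons by 1.81 ± 0.33 (limma adjusted p = 0.044). Its relative kcnl-2 rose by 4.48 ± 0.30 over non-BAG cells and kcnl-3 by 5.16 ± 0.45. The 2 channel genes that fell were kqt-1 (-1.01 ± 0.32) and twk-18 (-1.23 ± 0.35), the second known as a potassium channel of muscle, and neither call held without either mutant library or without non-BAG replicate 1. Without mutant replicate 1 and without mutant replicate 2 the G protein list gave 13 higher.

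**Figure D3:**
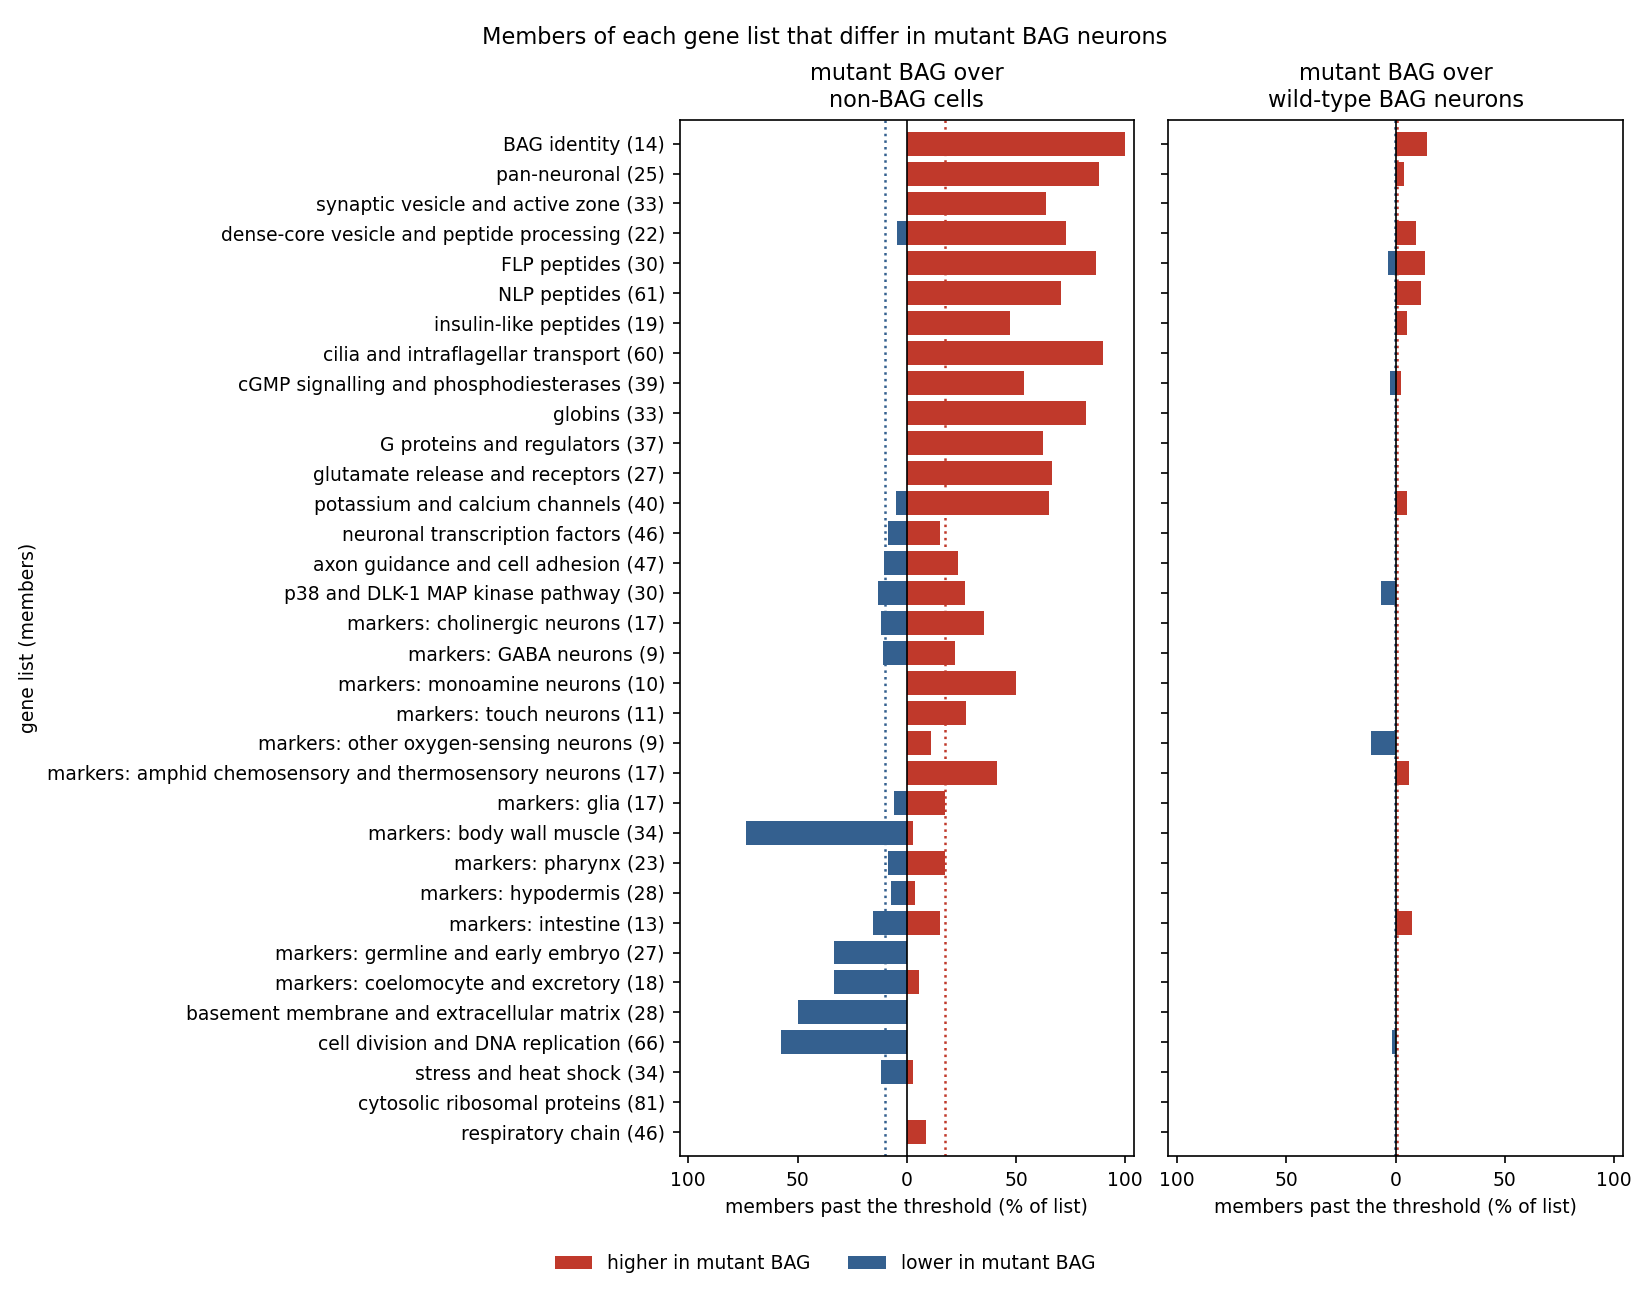
Share of each gene list's members that passed the threshold (limma adjusted p under 0.05) in mutant BAG neurons over non-BAG cells on the left and over wild-type BAG neurons on the right, with higher genes to the right of 0 and lower genes to the left, and the share over all members as dotted lines (17.3% and 9.94% on the left, 0.52% and 0.347% on the right). In the left panel the pan-neuronal, synaptic, peptide and ciliary lists stand to the right of the dotted line at 17.3%. The neuronal transcription factor list falls short of it. Muscle, matrix and cell division lists stand to the left of the dotted line at 9.94%. In the right panel few members of any list passed, among the higher ones 2 of 14 BAG identity, 4 of 30 FLP and 7 of 61 NLP genes.

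Transcription factor genes of neurons stood near the background as a list. Of 46 neuronal transcription factor genes 7 were higher and 4 lower in mutant BAG neurons than in non-BAG cells, with a median change of 0.08. The homeobox gene ceh-54 was at 754 and 1067 in mutant BAG neurons, 1157 and 1355 in wild-type BAG neurons, against 7.58 and 8.06 in non-BAG cells, a rise of 6.67 ± 0.30 over non-BAG cells. This gene reached the minimum through the mutant libraries alone and so had to be higher. Beside it, ets-5, egl-13, ceh-37, the CREB gene crh-1 (1.90 ± 0.27), daf-19 and unc-42 (1.26 ± 0.34) made up the higher genes. The proneural gene lin-32 (-2.39 ± 0.73), the Hox gene ceh-13 (-1.64 ± 0.31), hlh-4 (-1.55 ± 0.41) and nhr-67 (-1.43 ± 0.40) were lower. No gene of the list differed between mutant and wild-type BAG neurons past the threshold. The count of lower genes was 1 without mutant replicate 1, 0 without mutant replicate 2, 2 without non-BAG replicate 1 and 7 without non-BAG replicate 2.

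Axon guidance and adhesion genes also stood near the background as a list, with 11 of 47 higher and 5 lower, and a median of 0.06. Over all members 17.3% were higher and 9.94% lower. The neurexin gene nrx-1 was at 5767 and 5323 in mutant BAG neurons, 5164 and 3288 in wild-type BAG neurons, against 609 and 465 in non-BAG cells, a rise of 3.38 ± 0.30, and the calsyntenin gene casy-1 rose by 2.83 ± 0.29. The genes that fell were the guidance cue genes slt-1 (-1.30 ± 0.27) and unc-129 (-1.75 ± 0.31), the plexin gene plx-1 (-0.85 ± 0.24), the Wnt gene lin-44 (-3.01 ± 0.73) and zig-6 (-4.70 ± 0.99), of the immunoglobulin superfamily. The calls for lin-44 and zig-6 were both lost without mutant replicate 2, the first also without non-BAG replicate 2 and the second without non-BAG replicate 1. The gene zig-6 reached the minimum through the non-BAG libraries alone and so had to be lower. The higher count was 4 without mutant replicate 1, 5 without mutant replicate 2 and 6 without non-BAG replicate 2, and the lower count was 3, 1 and 4 without the same libraries.

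Genes of the pathway of the mutated kinase stood not far from the background as a list. Of 30 p38 and DLK-1 pathway genes 8 were higher and 4 lower, with a median of 0.15, beside 17.3% higher and 9.94% lower over all members. The upstream kinase genes dlk-1 and mkk-4 were higher than in non-BAG cells, by 1.26 ± 0.26 and 2.09 ± 0.29, and so were the JNK pathway genes jkk-1 (3.83 ± 0.35) and jnk-1 (3.08 ± 0.25). The transcription factor gene cebp-1, a target of the DLK-1 cascade, was at 6438 and 6261 in mutant BAG neurons, 6786 and 5830.5 in wild-type BAG neurons, against 6515 and 7219.7 in non-BAG cells, a difference of -0.11 ± 0.27 over non-BAG cells. The level of jkk-1 is uncertain because of an overlapping gene.

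Below wild-type BAG neurons lay 2 genes of this pathway list. The tubulin gene tbb-6, whose induction under mitochondrial stress is known to require PMK-3, was at 29.1 and 13.8 in mutant BAG neurons, 473 and 977 in wild-type BAG neurons, against 214 and 515 in non-BAG cells. Both mutant libraries lay far under all 4 wild-type libraries. The change was -3.98 ± 0.53 over non-BAG cells (limma adjusted p = 0.000632), which held without any one library, and -5.01 ± 0.53 over wild-type BAG neurons (limma adjusted p = 0.00932). The MAP kinase kinase gene sek-3 was at 290.0 and 305 in mutant BAG neurons, 979 and 751 in wild-type BAG neurons, against 548 and 576 in non-BAG cells, again with the mutant below both wild-type groups, and differed by -1.53 ± 0.26 from wild-type BAG neurons (limma adjusted p = 0.0383). The other lower genes of the list were ikb-1 (-1.84 ± 0.44) and trf-1 (-2.14 ± 0.66). Of these, trf-1 reached the minimum through the non-BAG libraries alone and so had to be lower than in non-BAG cells. The pathway's count of higher genes was 4 without mutant replicate 1, 3 without mutant replicate 2 and 5 without non-BAG replicate 2. The count of lower genes was 1 without mutant replicate 2 and 2 without mutant replicate 1 or either non-BAG library.

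The lists with the largest shares of lower genes were those of muscle, cell division and extracellular matrix. Of 34 body wall muscle genes 25 were lower in mutant BAG neurons than in non-BAG cells and 1 was higher, with a median change of -1.74. The muscle factor gene hlh-1 was at 17.2 and 31.05 in mutant BAG neurons, 34.7 and 22.98 in wild-type BAG neurons, against 238 and 113 in non-BAG cells. The zinc finger gene pat-9 was at 282 and 248 in mutant BAG neurons, 286 and 175 in wild-type BAG neurons, against 2839 and 1250.4 in non-BAG cells. Mutant and wild-type BAG neurons lay together, under both non-BAG libraries, with changes of -2.77 ± 0.51 for hlh-1 and -2.83 ± 0.41 for pat-9. The 1 higher gene was the myosin gene unc-54, at 41712 and 46587 in mutant BAG neurons, 36217 and 33253 in wild-type BAG neurons, against 7237 and 6443 in non-BAG cells. Without mutant replicate 2 the count of lower muscle genes was 14.

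Basement membrane and matrix genes gave 14 lower of 28 and none higher, with a median of -1.21. The nidogen gene nid-1 was at 121 and 111.5 in mutant BAG neurons, 185 and 122.1 in wild-type BAG neurons, against 3593 and 1440.1 in non-BAG cells, a change of -4.28 ± 0.42. The laminin gene epi-1 was at 942 and 829 in mutant BAG neurons, 1139 and 763 in wild-type BAG neurons, against 9904 and 5350.0 in non-BAG cells, a change of -3.04 ± 0.34. For both genes all 4 BAG libraries lay under both non-BAG libraries, and the mutant and wild-type BAG values overlapped for epi-1. Without mutant replicate 2 the count was 7.

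Cell division and DNA replication genes, which postmitotic neurons are known to switch off, gave 38 lower of 66 and none higher, with a median of -1.36. The cyclin gene cyb-3 was at 137 and 153 in mutant BAG neurons, 289 and 312 in wild-type BAG neurons, against 1189 and 648 in non-BAG cells, with no overlap and a change of -2.59 ± 0.33. The kinesin gene klp-18 changed by -2.50 ± 0.49, a call lost without mutant replicate 2, and the origin recognition gene orc-1 by -3.09 ± 0.90, a call lost without either mutant library and without non-BAG replicate 2. One gene, the polo-like kinase gene plk-2, was also lower than in wild-type BAG neurons, at 12.9 and 13.8 in mutant BAG neurons, 79.5 and 133 in wild-type BAG neurons, against 32.5 and 57.03 in non-BAG cells (difference -2.85 ± 0.48, limma adjusted p = 0.0334). The count was 14 without mutant replicate 1, 10 without mutant replicate 2 and 23 without non-BAG replicate 1.

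Among genes averaging 100 or more over the 4 libraries compared, the largest fall was that of cubn-1, a cubilin gene, which was at 127 and 85.1 in mutant BAG neurons, 69.4 and 42.4 in wild-type BAG neurons, against 3021 and 1904 in non-BAG cells, a change of -4.51 ± 0.37 (limma adjusted p = 3.84e-05). The peptidase-family gene pcp-5 changed by -4.51 ± 0.49, nrf-5 by -3.78 ± 0.39 and the glycosyltransferase-family gene ugt-18 by -3.64 ± 0.59. Of these, pcp-5 reached the minimum through the non-BAG libraries alone and so had to be lower. E01G4.5, math-4, ZK822.1 and T05A7.11 changed by -4.02, -3.92, -3.42 and -3.39. The forkhead gene let-381, known from mesoderm, was at 24.8 and 24.15 in mutant BAG neurons, 28.3 and 14.4 in wild-type BAG neurons, against 330.3 and 214 in non-BAG cells, but it overlaps hrpk-1 and its level is uncertain. Among these genes every mutant library lay under both non-BAG libraries, and none differed from wild-type BAG neurons past the threshold. Both mutant values also lay under both wild-type BAG values for pcp-5, nrf-5, ugt-18, E01G4.5, math-4 and ZK822.1. They lay above them for cubn-1 and T05A7.11. The difference from wild-type BAG neurons was -2.80 ± 0.59 for ugt-18 (limma adjusted p = 0.0654) and -1.79 ± 0.35 for E01G4.5 (limma adjusted p = 0.0544). Wild-type BAG neurons over non-BAG cells gave -0.84 ± 0.59 for ugt-18. Falls of similar size were those of tbb-6 (-3.98 ± 0.53) and cest-32 (-3.41 ± 0.35), and these genes did differ from wild-type BAG neurons, by -5.01 ± 0.53 for tbb-6 and -3.74 ± 0.35 for cest-32.

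Marker lists of other cells checked what else the sort held. Most listed intestinal genes were low: 15 of 26 listed genes were under 10 in both mutant libraries, elt-2 among them, and 4, elt-7, ges-1, mtl-2 and spp-1, were at 0. The lysozyme gene lys-1 was present, at 126 and 199 in mutant BAG neurons, 0.914 and 7.90 in wild-type BAG neurons, against 1.08 and 0.62 in non-BAG cells, and was higher than in wild-type BAG neurons by 5.27 ± 0.85 (limma adjusted p = 0.0301). The intermediate filament gene ifd-2 had 54.98 and 80.5 in mutant BAG neurons and 4.57 and 6.46 in wild-type BAG neurons, against 7.58 and 1.86 in non-BAG cells, a call lost without mutant replicate 2. Both lys-1 and ifd-2 reached the minimum through the mutant libraries alone and so had to be higher than in non-BAG cells. Lower were cpl-1 (-1.86 ± 0.47) and irg-1 (-1.15 ± 0.37), both lost without either mutant library. The call of cpl-1 was also lost without non-BAG replicate 1, and that of irg-1 in 10 of 18 other settings, those without either wild-type BAG library among them.

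Of 18 coelomocyte and excretory genes 6 were lower than in non-BAG cells, among them the receptor-family gene cup-4 (-3.56 ± 0.61), and 1, ceh-60 (2.88 ± 0.65), was higher, a call lost without either mutant library. Of 27 germline and early embryo genes 9 were lower and none higher, among them puf-8 (-3.31 ± 0.61), an RNA-binding protein gene, whose call was lost without mutant replicate 2. The germline count was 5 without mutant replicate 1, 3 without mutant replicate 2 and 5 without non-BAG replicate 2. Of 28 hypodermal genes dpy-8 (3.09 ± 0.66) was higher and che-14 (-1.13 ± 0.34) and lpr-3 (-1.03 ± 0.31) were lower, with dpy-5, dpy-9 and col-12 at 0 in the mutant libraries. Of 23 pharyngeal genes 4 were higher (avr-15, phat-4, pqn-8 and tni-4) and 2 lower (mlc-3 and phat-3), and of 17 glial genes 3 were higher (alr-1, kcc-3 and vab-3) and 1 lower (che-14). Over all members 17.3% were higher and 9.94% lower, so the pharyngeal and glial counts of higher genes lie near the background. Without mutant replicate 1 and without mutant replicate 2 no hypodermal and no higher pharyngeal gene passed, and 1 glial gene did, vab-3, the Pax6 homologue, which stood at 6092 and 6806 in mutant BAG neurons and 6333 and 5284 in wild-type BAG neurons, against 1635 and 909 in non-BAG cells. Without wild-type BAG replicate 1 and without replicate 2 there were 9 higher pharyngeal genes.

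Markers of other neurons were present and in part higher in the mutant sort. The acetylcholine transporter gene unc-17 was at 375 and 312 in mutant BAG neurons, 121.5 and 132 in wild-type BAG neurons, against 20.6 and 11.8 in non-BAG cells, and the choline transporter gene cho-1 at 189.7 and 139.1 in mutant BAG neurons, 54.8 and 83.3 in wild-type BAG neurons, against 4.33 and 10.5 in non-BAG cells. The GABA synthesis gene unc-25 was at 628 and 343 in mutant BAG neurons, 254 and 149 in wild-type BAG neurons, against 19.5 and 76.3 in non-BAG cells. In these 3 genes the mutant libraries lay above all others, and the differences from wild-type BAG neurons, 1.42 ± 0.38 for unc-17, 1.25 ± 0.50 for cho-1 and 1.25 ± 0.59 for unc-25, did not pass. Since unc-17 and cha-1 share exons, the level of unc-17 is uncertain.

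Over the lists, 6 of 17 cholinergic genes were higher than in non-BAG cells and 2 lower, the acetylcholine receptor subunit genes lev-8 and unc-29. Further, 2 of 9 GABA genes were higher, unc-25 and unc-47, and 1 lower, gta-1, and 5 of 10 monoamine genes were higher and none lower. Over all members 17.3% were higher and 9.94% lower, so the GABA counts lie near the background. The cholinergic count of higher genes was 3 without mutant replicate 1, and no lower one held without mutant replicate 2. The call of unc-47 was lost without mutant replicate 1 and that of gta-1 without either mutant library. The monoamine count was 0 without mutant replicate 1, 1 without mutant replicate 2 and 3 without non-BAG replicate 1. Touch neuron genes gave 3 higher of 11, with the stomatin gene mec-2 (4.33 ± 0.28) and the tubulin gene mec-12 (1.74 ± 0.27) among them, while the channel gene mec-4 and the tubulin gene mec-7 did not pass, at -0.36 and -0.43. Beside the 17.3% of all members, a count this small is no result about touch neurons. Of 9 genes of other oxygen-sensing neurons 1 was higher, the peptide gene flp-8 (2.07 ± 0.58), and its call was lost without either mutant or either non-BAG library. Of 17 amphid neuron genes 7 were higher. This count was 1 without mutant replicate 1, 2 without mutant replicate 2 and 4 without non-BAG replicate 2. Of 25 amphid genes listed, 7 were under 10 in both mutant libraries, che-1 among them, and str-2 and str-3 were at 0. The TGF-beta gene daf-7, known from the ASI neurons, was at 633 and 975 in mutant BAG neurons, 99.6 and 121 in wild-type BAG neurons, against 109 and 144 in non-BAG cells, and was higher than in wild-type BAG neurons by 2.83 ± 0.33 (limma adjusted p = 0.00984).

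Summed over its members, the amphid list stood at 2899.8 and 2697 in mutant BAG neurons, 1614 and 858 in wild-type BAG neurons, against 1323 and 882 in non-BAG cells. The monoamine list stood at 677 and 628 in mutant BAG neurons, 451 and 395 in wild-type BAG neurons, against 189.5 and 283 in non-BAG cells. The cholinergic list stood at 3425 and 2505 in mutant BAG neurons, 2629 and 1868 in wild-type BAG neurons, against 2535 and 1779 in non-BAG cells. The touch neuron list stood at 5122 and 5996 in mutant BAG neurons, 3665 and 3684 in wild-type BAG neurons, against 1373 and 1094 in non-BAG cells, and the glial list at 12003 and 12482 in mutant BAG neurons, 11839 and 9412 in wild-type BAG neurons, against 8936 and 5634 in non-BAG cells. The amphid, monoamine, touch neuron and glial sums were higher in both mutant libraries than in any other library, and the cholinergic sums overlapped between the groups. The largest part of the mutant glial sums was vab-3, at 6092 and 6806, beside 6333 and 5284 in wild-type BAG neurons. For the mutant touch neuron sums it was mec-2, at 3472 and 4473. The median change over non-BAG cells was 0.0032 for the glial list and -0.36 for the touch neuron list, so these sums do not speak for their lists. The muscle sums were 77734 and 80757 in mutant BAG neurons and 79567 and 68769 in wild-type BAG neurons, against 115050.0 and 86787 in non-BAG cells, so the mutant values lay under the non-BAG values. The largest part of the mutant sums, 41712 and 46587, was unc-54, the 1 gene of the list that rose. The amphid and monoamine sums were, like the peptide genes named above, higher in mutant than in wild-type BAG neurons. Of the mutant amphid sums, 633 and 975 were daf-7. Whether other neurons in the sort had a part in the peptide result was not tested.

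**Figure D4:**
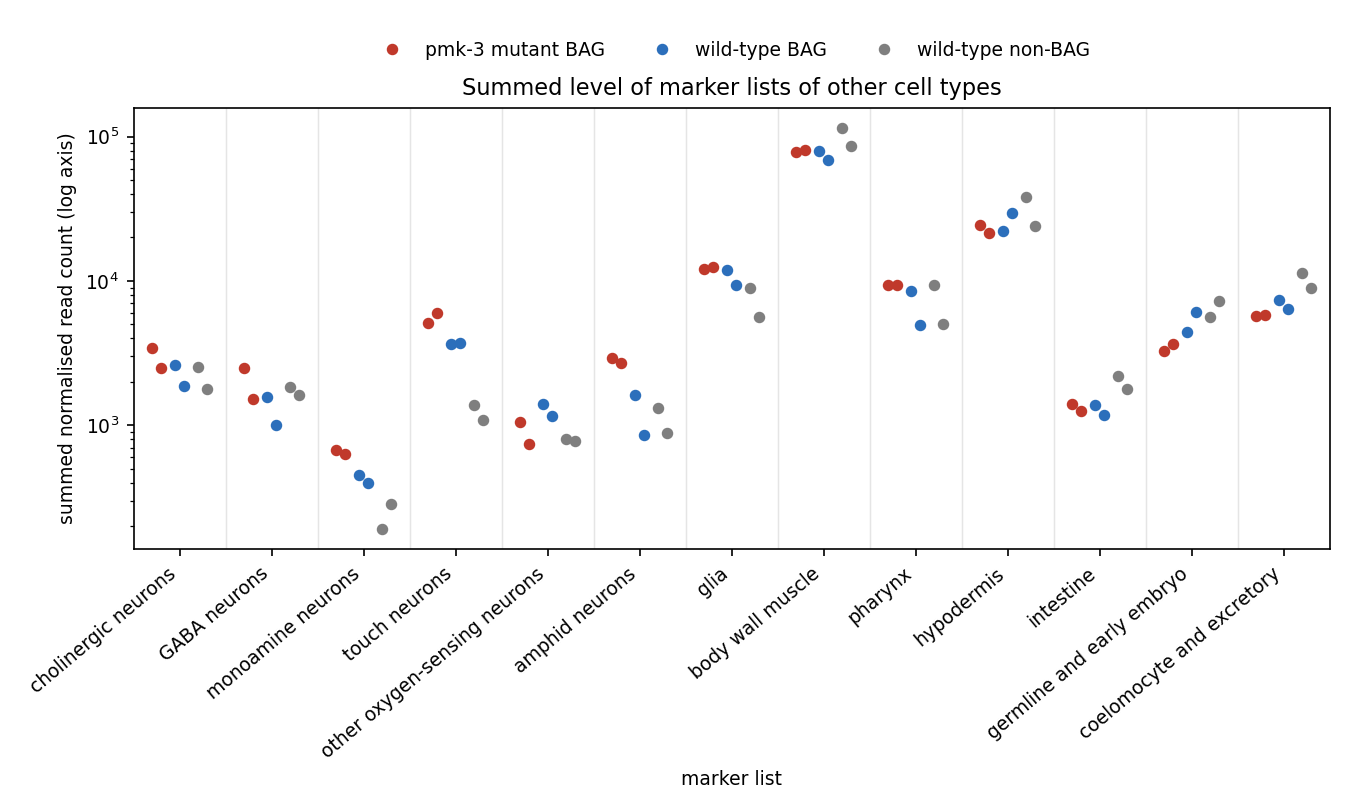
Summed normalised read count of each marker list in the 6 libraries on a log axis, with 1 point a library. The amphid, monoamine, touch neuron and glial sums are highest in the mutant libraries, the muscle, germline and coelomocyte sums lie under both non-BAG libraries in them, and the cholinergic and pharyngeal sums overlap between groups. In the mutant libraries the largest part of the glial sums is vab-3 and that of the touch neuron sums is mec-2.

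A small set of genes told mutant BAG neurons apart from both wild-type groups. Among members past the threshold over both, and averaging 100 or more across BAG libraries, the 10 largest differences from wild-type BAG neurons were 4 genes higher and 6 lower in the mutant. B0294.1 was at 257 and 871 in mutant BAG neurons, 2.74 and 12.2 in wild-type BAG neurons, against 5.41 and 0 in non-BAG cells. W05F2.7 was at 196 and 302 in mutant BAG neurons, 7.31 and 8.62 in wild-type BAG neurons, against 11.9 and 34.7 in non-BAG cells. Both had a few reads in the wild-type BAG libraries. They were higher in the mutant by 6.07 ± 0.99 for B0294.1 (limma adjusted p = 0.0301) and 4.77 ± 0.56 for W05F2.7 (limma adjusted p = 0.00984). ZK971.1 and F41B4.2 were higher by 3.60 ± 0.52 and 3.59 ± 0.46, and both genes had under 5 in each non-BAG library. Both of them and B0294.1 reached the minimum through the mutant libraries alone, and so had to be higher than in non-BAG cells.

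The lower genes lay under both wild-type groups. Beside tbb-6, the transporter gene pgp-9, of the P-glycoprotein family, was at 4.31 and 9.20 in mutant BAG neurons, 272 and 248 in wild-type BAG neurons, against 33.6 and 37.2 in non-BAG cells. B0205.13 was at 1.08 and 18.4 in mutant BAG neurons, 334 and 217.6 in wild-type BAG neurons, against 93.1 and 88.6 in non-BAG cells. The esterase-family gene cest-32 was at 17.2 and 20.7 in mutant BAG neurons, 227 and 308 in wild-type BAG neurons, against 179 and 247 in non-BAG cells. In these 3 genes each mutant library lay under each wild-type library. The gene pgp-9 reached the minimum through the non-BAG libraries alone, and so had to be lower than in non-BAG cells.

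Against wild-type BAG neurons they differed by -5.15 ± 0.46 for pgp-9 (limma adjusted p = 0.00706), -5.41 ± 0.84 for B0205.13 (limma adjusted p = 0.0301) and -3.74 ± 0.35 for cest-32 (limma adjusted p = 0.00731). F09F7.5 and F53B2.8 differed by -3.68 ± 0.44 and -3.57 ± 0.43, and against non-BAG cells by -1.98 ± 0.44 and -2.14 ± 0.43. The non-BAG calls of F09F7.5, F53B2.8 and pgp-9 were lost without mutant replicate 1. For B0205.13 the change over non-BAG cells was -3.85 ± 0.84, and -2.24 without mutant replicate 1. The level of cest-32 is uncertain because of Y49G5B.1 on the opposite strand.

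**Figure D5:**
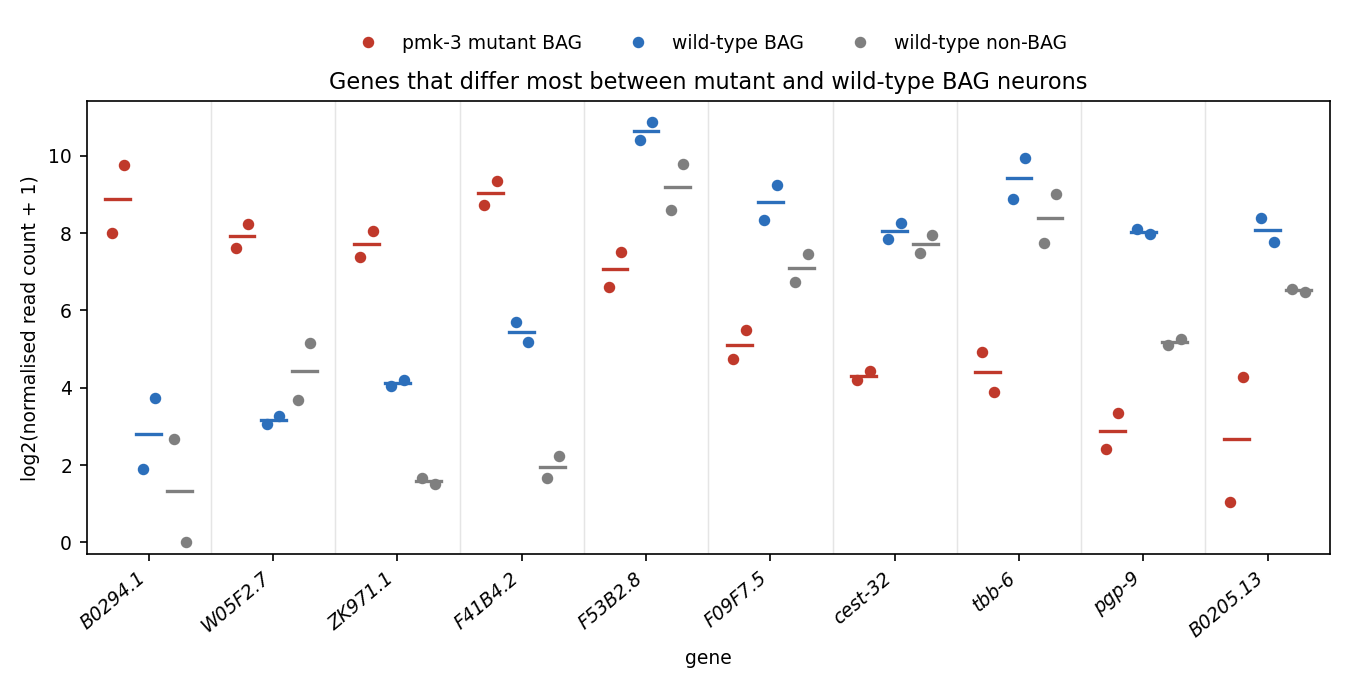
The 10 named genes that differ most between mutant and wild-type BAG neurons, as log2(normalised read count + 1) in the 6 libraries, with 1 point a library and a bar at the group mean. In the 4 genes on the left the mutant points lie above both wild-type groups, and in the 6 on the right they lie under both.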

How the data were processed

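RNA of 2 mutant BAG, 2 wild-type BAG and 2 wild-type non-BAG libraries was amplified and sequenced as paired-end reads, per the labels' protocols. The deposited table holds signal values per gene, read counts divided by a size factor of each library by the authors. Tools named in the submitters' processing notes are STAR, HTSeq and DESeq2, while their versions, the genome build and the strand setting are not stated there. All values came back as whole reads within 0.01. Genes with at least 10 in at least 2 of the 6 libraries entered 1 limma fit (limma 3.58.1, R 4.3.3) of log2(value + 1) with a mean-variance trend and 3 residual degrees of freedom, with no replicate block. A test passed at a Benjamini-Hochberg adjusted p under 0.05, two-sided, over all genes fitted. DESeq2 1.42.0 and edgeR 4.0.16 on the recovered reads were alternatives. The fit was tested on simulated data.

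Members and the 34 gene lists (1179 of 1203 listed genes found) were chosen with earlier results of these data known, so no list is independent evidence of its direction. Genes are named when they are pmk-3, ins-1 or of the BAG identity list, when they have 1 of the 12 largest rises or falls or the 10 largest differences from wild-type BAG neurons past the threshold (mean of at least 100, groups apart), or as 2 to 4 members of each list with the largest changes past the threshold. All other genes named, such as flp-25, gcy-37, ins-30, nlp-59, sek-3, plk-2 and pkg-2, were chosen after their values were seen. Overlapping genes are those whose exons share sequence with a partner at 10% or more of their level in the reference annotation, which matched 43655 of 47063 gene identifiers and was used for names, classes and neighbours alone.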

Additional observations from a re-analysis of the deposited data

How the results depend on the processing

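No call of the genes named by rule reversed under the 17 or 18 alternatives run for each. The count of genes higher than in non-BAG cells, 2288 as reported, lay between 1068 and 2284 when 1 library was left out, and the count of lower genes, 1318, between 302 and 1348. It was 847 lower with no trend in the fit. Against wild-type BAG neurons, with 69 higher and 46 lower as reported, leaving out 1 library gave 0 to 298 higher and 0 to 248 lower. DESeq2 on the recovered reads gave 372 higher and 284 lower, edgeR gave 118 higher, a fit of only the groups compared gave 374 higher and 270 lower, an added 8 in place of 1 gave 148 higher, and a fit with no trend gave 0 higher and 1 lower. With a replicate block the counts were 342 higher and 328 lower against wild-type BAG neurons, and 2662 higher and 1943 lower against non-BAG cells. Deviations of same-numbered libraries from their group means correlated at r = 0.00403 between mutant BAG and non-BAG and 0.0458 between mutant and wild-type BAG, so the numbers do not pair the mutant libraries with others, and at 0.46 between the wild-type BAG and non-BAG sorts of 1 strain. The causes of these differences were not tested. Quantile scaling moved the median change over non-BAG cells to -0.20, and 54.7% of calls were then higher, against 63.5% as reported and 70.8% with no trend. TMM scaling moved the median difference from wild-type BAG neurons to 0.17, against 0.06 as reported. Totals of 6181113 to 8596169 reads a library limit genes of a few reads, and 2 libraries a group leave 3 residual degrees of freedom.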

Other observations

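Few genes of cell death and stress passed. Of 34 stress and death genes 4 were lower in mutant BAG neurons than in non-BAG cells, a share near the 9.94% of all members. They were egl-1, the BH3-only activator, ced-3, the caspase, ced-4, its activator, and cep-1, the p53 homologue. The gene egl-1 was at 257 and 251 in mutant BAG neurons and 184 and 412 in wild-type BAG neurons, against 731 and 945 in non-BAG cells, a change of -1.71 ± 0.38 (limma adjusted p = 0.0098). For ced-3 the values were 216 and 237 in mutant BAG neurons and 244 and 277 in wild-type BAG neurons, against 775 and 493 in non-BAG cells, a change of -1.45 ± 0.30 (limma adjusted p = 0.00754). The BAG groups lay together under the non-BAG libraries for both genes. The 1 higher gene, atf-4 (0.98 ± 0.32), is a transcription factor of the integrated stress response. No call of the list held without mutant replicate 1 or without mutant replicate 2.

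Housekeeping lists held few calls. None of 81 cytosolic ribosomal protein genes passed against non-BAG cells in either direction by limma, and 1 had an unadjusted p under 0.05. Their median change was -0.22. Of 46 respiratory chain genes 4 were higher and none lower, with a median of 0.17, beside 17.3% higher and 9.94% lower over all members. The higher ones were the succinate dehydrogenase genes sdha-1 (2.23 ± 0.35) and sdhb-1 (1.203 ± 0.30) and the mitochondrially encoded nduo-2 (1.42 ± 0.40) and nduo-4 (1.26 ± 0.26). The gene sdha-1 was at 873 and 1073 in mutant BAG neurons and 462 and 484 in wild-type BAG neurons, against 292 and 144 in non-BAG cells. Without mutant replicate 2 the count was 1.

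Among noncoding members, 80 of 145 annotated piRNA loci were higher in mutant BAG neurons than in non-BAG cells and 2 were lower. Of the 80, 43 overlap, on either strand, a protein-coding gene that was itself higher, against 11 of the 63 piRNA loci that did not pass. Of 852 loci of the ncRNA class 247 were higher, 118 of them overlapping such a gene, against 91 of the 596 that did not pass. Of 258 pseudogenes 21 were higher and 43 lower. Over all members 17.3% were higher and 9.94% lower.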
